A study of Mus musculus with 9 samples.

Results

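The interleukin-1 (IL-1) and interleukin-18 (IL-18) receptor family was followed through 9 RNA sequencing libraries of mouse spleen B cells, as 10 of the 17596 genes in the expression table. The 10 members were Il1r1, Il1rap, Il1r2, Il1rn, Sigirr, Il18, Il18r1, Il18rap, Il1rl1 and Il1rl2, taken by gene symbol. The family was chosen by the day 3 values of Il1r2, which stood among the genes with the lowest level in Mct1f/fMb1Cre relative to Mb1Cre B cells on that day. The genotype comparison on day 3 is therefore given as a description for every member, with no test, and so are the activation values of Il1r2.

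The study asked what the monocarboxylate transporter MCT1 (gene symbol Slc16a1), which carries lactate and pyruvate across the plasma membrane, does in B cells that switch their antibody class. Mct1f/fMb1Cre mice, on a C57BL/6J background, carried 2 copies of a floxed Mct1 allele with loxP sites at exon 1 and intron 3, together with Mb1Cre, a Cre recombinase expressed from the Mb1 (Cd79a) locus throughout the B lineage. The controls carried Mb1Cre without the floxed allele, so Cre was common to every library, and the animals were 6 to 8 weeks old. Naive B cells (day 0) gave 2 libraries per genotype, and B cells cultured for 3 days with LPS (10 µg/ml) plus IL-4 (50 ng/ml) gave 2 Mb1Cre and 3 Mct1f/fMb1Cre libraries. The labels tie no library to a mouse, a litter or a culture, so p-values measure only the spread between these samples, which may be technical.

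Levels are given as FPKM, fragments per kilobase of transcript scaled to the mapped fragments of the library, which can be compared between genes because they are per length. The read depth behind them is unknown. The targeted gene, Slc16a1, was at 22.58 and 22.95 FPKM in Mb1Cre and at 10.82, 9.81 and 9.5 FPKM in Mct1f/fMb1Cre B cells on day 3, a log2 difference of -1.11 (limma adjusted p = 9.07e-06). On day 0 it was at 4.33 and 3.8 FPKM in Mb1Cre and at 3.71 and 4.06 FPKM in Mct1f/fMb1Cre B cells, where the log2 difference of -0.05 did not pass the test (limma adjusted p = 0.844). One library stood apart: Mct1f/fMb1Cre day 0 replicate 1 had the highest sum of 6 neutrophil marker genes (1202.68 FPKM, beside 380.39 to 533.81 in the other 3 day 0 libraries) and held the Y-linked gene Ddx3y at 31.13 FPKM, beside 0.02 to 0.24 in the other 3. All day 3 libraries held Ddx3y at 14.69 to 16.91 FPKM, so sex and day cannot be told apart outside that library. The 6 B cell markers, Cd79a among them, summed to between 4182.96 and 4612.08 FPKM on day 0 and to between 2181.78 and 2271.07 on day 3.

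The family works through paired chains. IL-1 binds the receptor chain IL1R1, which recruits the accessory chain IL1RAP and signals through MyD88 and IRAK kinases to NF-kB; IL-18 does the same through IL18R1 and IL18RAP, IL-33 through IL1RL1 (ST2) and IL-36 through IL1RL2. Several members hold this signal back: IL1R2 binds IL-1 but lacks the intracellular signalling domain and acts as a decoy, IL1RN is a soluble antagonist of IL1R1, and SIGIRR is a membrane receptor that dampens signalling by the others. In spleen, IL1R2 is well known from neutrophils, IL-18 from macrophages and the IL-18 receptor chains from NK and T cells, so transcripts of other cells left among purified B cells can contribute to these values.

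In the GENCODE annotation of GRCm38, 6 members lie side by side on chromosome 1, all on the plus strand, within chr1:40074079-40551705 (478 kb). Their order is Il1r2, Il1r1, Il1rl2, Il1rl1, Il18r1 and Il18rap, with no other protein-coding gene between neighbours. The gaps run from 136 bases between Il1rl1 and Il18r1 to 99848 bases between Il1r2 and Il1r1. The other members are elsewhere: Il1rap at chr16:26581704-26730117, Il1rn at chr2:24336853-24351494 and Il18 at chr9:50554827-50581840 on the plus strand, and Sigirr at chr7:141091175-141100572 on the minus strand. Whether the libraries kept the strand is not given in the sources used here, so reads of Il1r2 and of its antisense gene Gm16894 cannot be told apart, nor can those of Il18 and Bco2, a gene on the opposite strand that overlaps it.

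Promoter windows of RefSeq (GRCm38.p6), from 250 bases before to 50 bases after a start site, were matched to 9 of the 10 members (15 windows), with none for Sigirr. The bases before the start site are shown for Il1r2, the member around which the family was chosen, and for Il18 and Il18rap, a cytokine and a receptor chain that fell on activation. They lie on the plus strand at chr1:40085843-40085984, chr9:50554450-50554699 and chr1:40515112-40515361, and the Il1r2 stretch ends where GENCODE places the gene's exon. Capitals mark E-boxes (CACGTG) in Il1r2 and the spaced palindrome TTCNNNNGAA, the form bound by STAT6 downstream of IL-4, in the others.
Il1r2: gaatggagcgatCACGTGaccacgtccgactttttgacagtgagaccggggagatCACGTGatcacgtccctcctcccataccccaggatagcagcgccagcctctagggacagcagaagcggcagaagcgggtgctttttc
Il18: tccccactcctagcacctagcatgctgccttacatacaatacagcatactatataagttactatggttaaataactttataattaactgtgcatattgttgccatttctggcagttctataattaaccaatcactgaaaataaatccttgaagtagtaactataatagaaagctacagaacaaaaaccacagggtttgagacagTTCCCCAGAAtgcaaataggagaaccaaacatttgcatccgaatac
Il18rap: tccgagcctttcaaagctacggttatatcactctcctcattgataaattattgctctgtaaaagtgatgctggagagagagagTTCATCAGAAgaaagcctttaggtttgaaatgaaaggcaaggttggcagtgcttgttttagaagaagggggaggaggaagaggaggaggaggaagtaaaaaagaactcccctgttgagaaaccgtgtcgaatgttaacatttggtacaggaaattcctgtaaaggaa

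The Il1r2 window held 2 E-boxes, which begin 238 and 195 bases before the RefSeq start site. That site lies inside the GENCODE span of Il1r2, which begins at chr1:40074079. The GENCODE exon that ends the shown stretch begins before the RefSeq start site, so it is nearer to the E-boxes. Among all 32851 promoter windows, 7.15% held at least 1 E-box and 0.594% held 2 or more. No other member's window held an E-box. The palindrome TTCNNNNGAA was found in windows of 4 members (Il18, Il18r1, Il18rap and Il1rn), in Il18 46 bases and in Il18rap 167 bases before the start site, and in 6.95% of all windows. The AP-1 motif TGANTCA was found in 1 member, Il1rn, and in 7.81% of all windows. Some members have several windows, which can overlap and hold the same site, so counts of members and shares of windows are unlike measures. All 3 motifs read the same on both strands, so each match covers both, and a match in these letters is a description, not a binding site.

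**Figure D1:**
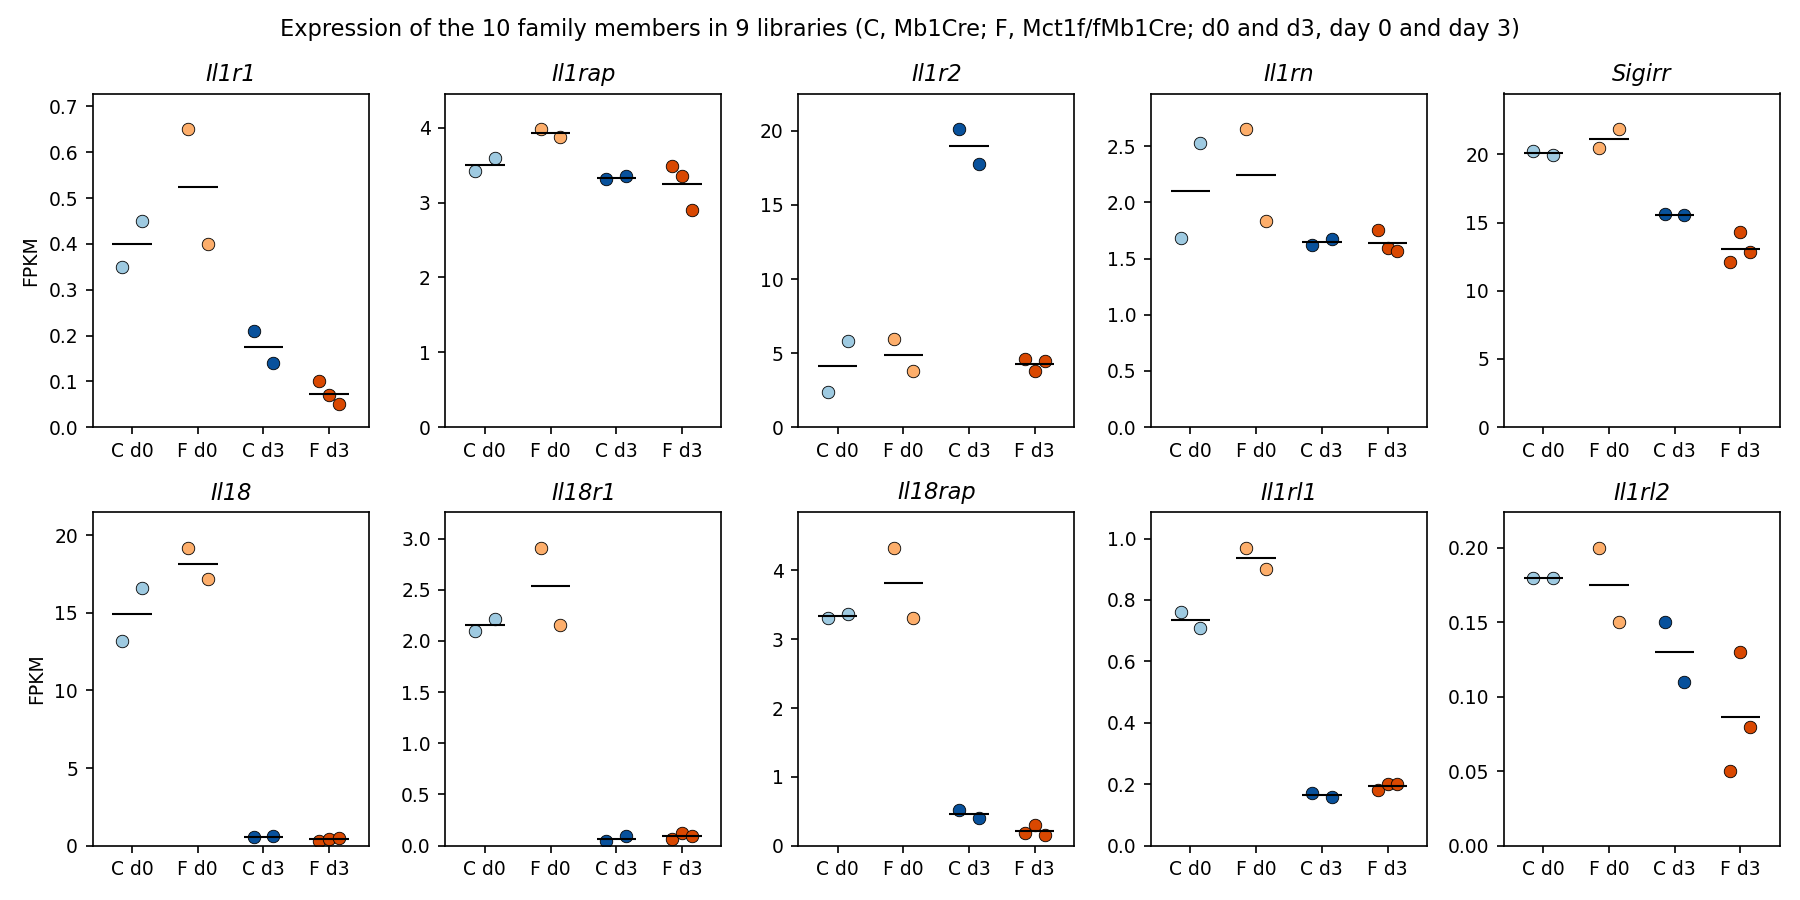
Each panel shows 1 member, with FPKM from 0 on the vertical axis, 1 point per library, a bar for each group's mean, and the groups on the horizontal axis (C, Mb1Cre; F, Mct1f/fMb1Cre; d0 and d3, day 0 and day 3). Il1r2 is the member with a high group on day 3, at 17.79 and 20.11 FPKM in Mb1Cre, while Il18, Il18r1 and Il18rap are near 0 in every day 3 library.

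In naive B cells the inhibitory receptor and the cytokine were the most abundant members. In Mb1Cre day 0 libraries, Sigirr averaged 20.1 ± 0.219 FPKM (SD, n = 2) and Il18 averaged 14.9 ± 2.42 FPKM (SD, n = 2). Il1r2, Il1rap and Il18rap followed at 4.11, 3.51 and 3.34 FPKM, and the range of Il1r2 (2.4 to 5.82 FPKM) covered the values of the other two. Il18r1 at 2.16 and Il1rn at 2.11 FPKM overlapped as well. The signalling receptor Il1r1 averaged 0.4 FPKM, below Il1rl1 (0.735 FPKM) and above Il1rl2 (0.18 FPKM). The order of the means was the same in Mct1f/fMb1Cre day 0 libraries, from Sigirr at 21.2 FPKM down to Il1rl2 at 0.175 FPKM. Before activation the decoy gene thus stood about as high as the accessory chain, and the chain that signals for IL-1 stood below both.

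After 3 days the order had another head. In Mb1Cre libraries Il1r2 led with 18.95 ± 1.64 FPKM (SD, n = 2), above Sigirr at 15.6 ± 0.0919 FPKM (SD, n = 2), with no overlap. In Mct1f/fMb1Cre libraries Sigirr led with 13.1 ± 1.13 FPKM (SD, n = 3) and Il1r2 came next with 4.29 ± 0.427 FPKM (SD, n = 3). Il1rap was the third in both genotypes, at 3.34 and 3.25 FPKM, and Il1rn the fourth, at 1.65 and 1.64 FPKM. The other 6 members averaged below 0.6 FPKM in both genotypes on day 3, and several of those neighbours in the order overlapped.

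Il1r2, the IL-1 decoy receptor, was at 2.4 and 5.82 FPKM in Mb1Cre B cells on day 0 and at 20.11 and 17.79 FPKM on day 3. In Mct1f/fMb1Cre B cells it was at 5.94 and 3.77 FPKM on day 0 and at 4.62, 3.81 and 4.45 FPKM on day 3. Only the 2 Mb1Cre day 3 libraries were high among the 9, and the Mct1f/fMb1Cre day 3 libraries lay within the range of the day 0 libraries. The day 3 mean was 4.61 times the day 0 mean in Mb1Cre (3.26 times without Mb1Cre day 0 replicate 1 and 7.9 times without replicate 2) and 88.4% of it in Mct1f/fMb1Cre B cells. On the log2(FPKM + 1) scale these differences were 2.05 (SE 0.263) and -0.12 (SE 0.240), which contain the values that chose the family and carry no test. The first was 1.55 and 2.55 without Mb1Cre day 0 replicate 1 and 2, and the second 0.15 without Mct1f/fMb1Cre day 0 replicate 1.

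On day 3, the comparison that chose the family, Il1r2 in Mct1f/fMb1Cre B cells was at 22.7% of its Mb1Cre level. The log2 difference of -1.91 (SE 0.240) was the fourth lowest of 10823 genes. Just below it in that order stood the transcription factor gene Batf3 (-2.12), Ido1 (-2.11), which encodes an enzyme of tryptophan breakdown, and the inhibitory receptor gene Ctla4 (-2.08), and just above it the serotonin receptor gene Htr7 (-1.67) and Gm42048 (-1.65). The genotype difference on day 3 minus that on day 0 was -2.17 for Il1r2 (SE 0.356). As background, 2.42% of the genes tested were called between the genotypes on day 3 (adjusted p under 0.05 and a log2 difference above 0.5 in size).

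The genes whose pattern over the 9 libraries was most like that of Il1r2, by the root mean square difference of mean-centred log2(FPKM + 1) among 10822 genes, were Batf3 (0.301), Pim2 (0.428), Rap1gap (0.434), Jag2 (0.449) and Eng (0.461). Batf3 was at 5.73, 8.36, 6.84 and 7.65 FPKM in the day 0 libraries (Mb1Cre, then Mct1f/fMb1Cre), at 28.84 and 25.16 FPKM in Mb1Cre and at 5.44, 6.56 and 4.51 FPKM in Mct1f/fMb1Cre libraries on day 3. Pim2, a kinase gene, was at 36.01 to 37.85 FPKM in the day 0 libraries, at 97.97 and 97.54 FPKM in Mb1Cre and at 46.5 to 48.54 FPKM in Mct1f/fMb1Cre libraries on day 3. In these genes too the Mb1Cre day 3 libraries were the highest of the 9. Since the pattern itself was used for the choice, the likeness is a description.

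Activation was tested for the 9 members other than Il1r2. In the fit without a filter on low values 4 of the 9 were called in Mb1Cre B cells (Il18, Il18r1, Il18rap and Il1rl1) and 6 in Mct1f/fMb1Cre B cells (the same 4, Sigirr and Il1r1), all of them lower on day 3, beside 39.8% and 38.9% of the 17596 genes called in either direction. Averages under 1 FPKM across the libraries were left out of the main fit of 10823 genes, which 6 of the 9 members reached. There 3 were called lower in Mb1Cre B cells (Il18, Il18r1 and Il18rap), beside 57.8% of genes called in either direction and 33.0% called lower, and 4 in Mct1f/fMb1Cre B cells (the same 3 and Sigirr), beside 56.5% and 33.2%. Il18, Il18r1 and Il18rap were below 1 FPKM in every day 3 library and reached the main fit only through day 0, so they had to differ there, nothing is read from these counts, and their p-values are given from the fit without the filter. The unadjusted limma p in the main fit was under 0.05 for 4 of the 6 in Mb1Cre and for 5 in Mct1f/fMb1Cre B cells. Il18, Il18r1 and Il18rap are among them, and the share of all genes at such a p was not counted, so nothing is read from these counts either.

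**Figure D2:**
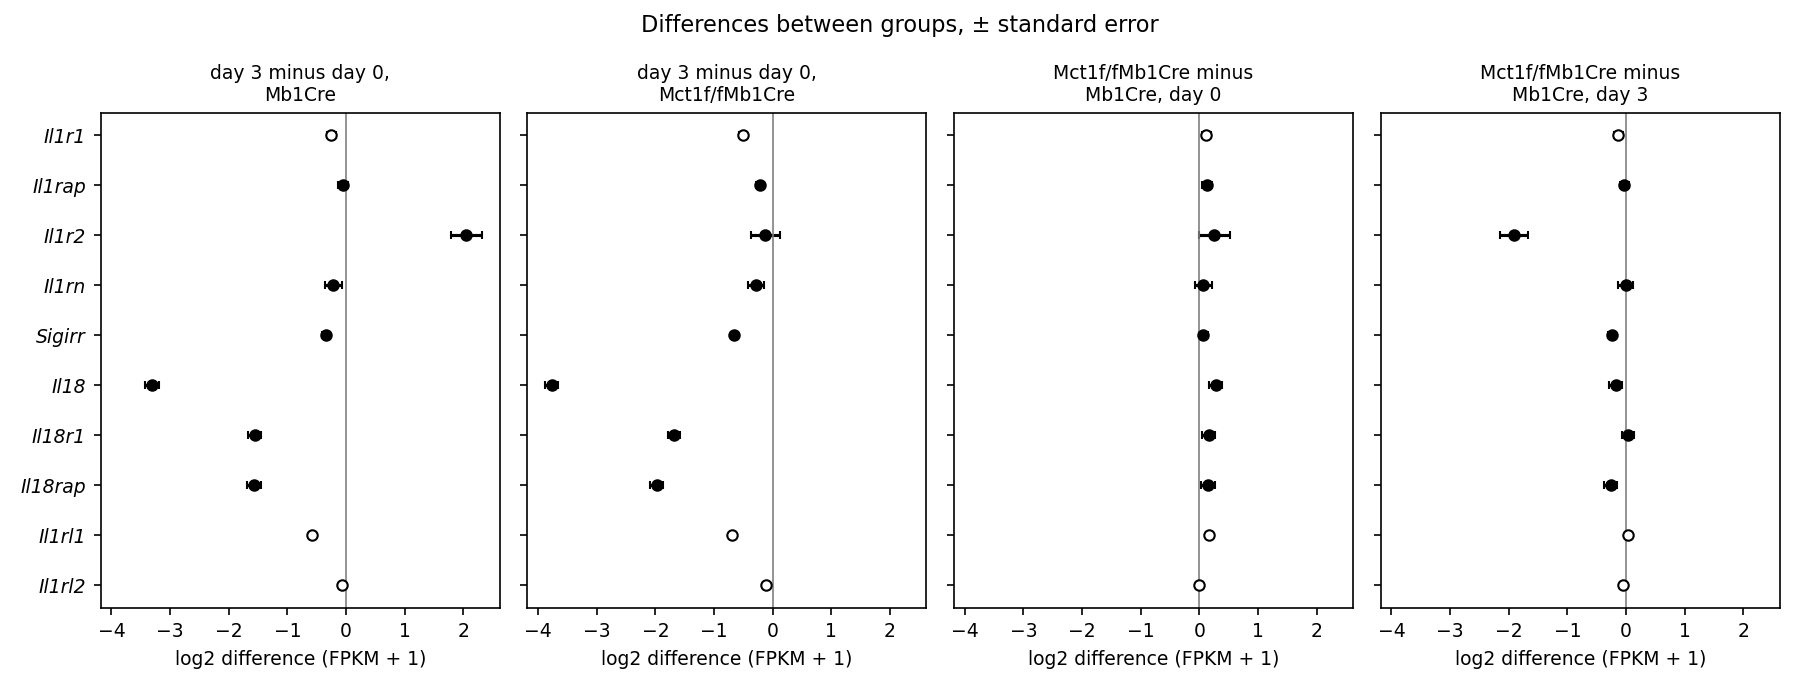
Log2 differences of FPKM + 1 (horizontal axis) with standard errors for the 10 members (rows) in 4 comparisons (panels); filled points come from the fit of 10823 genes and open points, for Il1r1, Il1rl1 and Il1rl2, from the fit without the filter. Il18 lies at -3.31 and -3.77 in the 2 activation panels, and Il1r2 at 2.05 on activation of Mb1Cre B cells and at -1.91 between the genotypes on day 3, the comparison that chose the family.

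Il18, the gene of the cytokine itself, fell in both genotypes. It was at 13.19 and 16.61 FPKM in Mb1Cre and at 19.19 and 17.16 FPKM in Mct1f/fMb1Cre B cells on day 0. On day 3 it was at 0.56 and 0.62 FPKM in Mb1Cre and at 0.27, 0.46 and 0.5 FPKM in Mct1f/fMb1Cre B cells. All day 3 libraries lay far below all day 0 libraries, with a Mb1Cre day 0 mean 25.3 times that of day 3. The log2 difference was -3.31 in Mb1Cre B cells (limma adjusted p = 7.10e-07 without the filter) and -3.77 in Mct1f/fMb1Cre B cells (limma adjusted p = 2.46e-07). The overlapping gene Bco2 also had lower values on day 3, at 1.58, 1.5, 1.32 and 1.31 FPKM on day 0 and at 0.18 to 0.47 FPKM on day 3, and its part in the Il18 values was not tested.

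Both IL-18 receptor chains fell. Il18r1, the ligand-binding chain, was at 2.1 and 2.21 FPKM in Mb1Cre and at 2.91 and 2.16 FPKM in Mct1f/fMb1Cre B cells on day 0. After 3 days it was at 0.05 and 0.09 FPKM in Mb1Cre and at 0.07, 0.12 and 0.09 FPKM in Mct1f/fMb1Cre B cells, close to the lower end of what the table can show with its 2 decimals. The log2 difference was -1.56 in Mb1Cre (limma adjusted p = 6.08e-06 without the filter) and -1.69 in Mct1f/fMb1Cre B cells (limma adjusted p = 2.39e-06). The log2(FPKM + 1) scale understates the change of such low genes: the Mb1Cre day 0 mean was 30.8 times that of day 3, and with a pseudocount of 0.1 the difference was -3.74. In Mb1Cre B cells its call was lost with a pseudocount of 5, where the log2 difference was -0.50.

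Il18rap, the accessory chain of the IL-18 receptor, was at 3.31 and 3.37 FPKM in Mb1Cre and at 4.33 and 3.31 FPKM in Mct1f/fMb1Cre B cells on day 0. After 3 days it was at 0.52 and 0.4 FPKM in Mb1Cre and at 0.19, 0.3 and 0.16 FPKM in Mct1f/fMb1Cre B cells. It remained above its partner Il18r1 in every library. The log2 difference was -1.57 in Mb1Cre (limma adjusted p = 1.31e-05 without the filter) and -1.98 in Mct1f/fMb1Cre B cells (limma adjusted p = 2.34e-06). Its Mb1Cre day 0 mean was 7.26 times that of day 3.

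Markers of monocytes, macrophages and T cells moved with these 3 genes, and those of NK cells were mixed. The summed level of 6 monocyte and macrophage markers went from between 733.58 and 962.79 FPKM on day 0 to between 13.77 and 26.29 FPKM on day 3, and the means of 5 of the 6 were at least 10-fold lower on day 3. The 5 T cell markers in the table summed to 26.73 to 30.14 FPKM on day 0 and to 0.77 to 1.37 FPKM on day 3. Of 6 NK cell markers, 4 had lower means on day 3, and of these Ncr1, Klrb1c and Klrk1 were at least 10-fold lower. Gzma rose from between 35.38 and 42.01 FPKM on day 0 to between 79.49 and 92.46 FPKM on day 3. Prf1 rose too, from between 4.71 and 5.44 FPKM to between 6.57 and 7.74 FPKM. The NK sums of the days overlapped (79.27 to 96.43 FPKM, then 93.14 to 105.58 FPKM). In bulk samples fewer cells of a type and less RNA per cell cannot be told apart, and the part of these cells in the fall of Il18, Il18r1 and Il18rap was not tested.

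**Figure D3:**
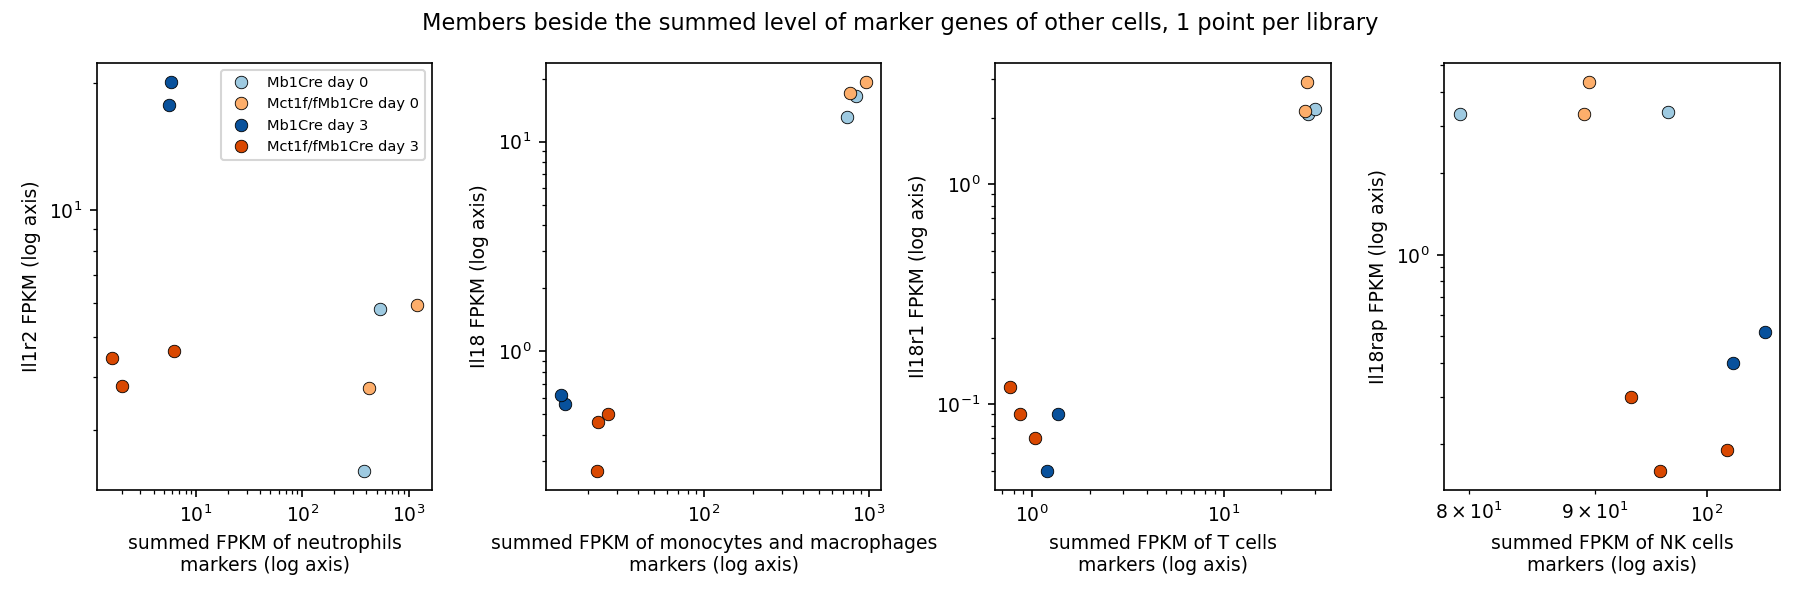
Each point is 1 of the 9 libraries, coloured by group, with FPKM of a member on the vertical axis and summed FPKM of marker genes on the horizontal axis, all axes logarithmic. Il18 and Il18r1 are high where the monocyte and macrophage or T cell markers are high (day 0), and Il1r2 is at 17.79 and 20.11 FPKM in libraries whose neutrophil markers sum to 5.54 and 5.85 FPKM. In the Il18rap panel the NK cell marker sums of the days overlap.

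Neutrophil markers overlapped between the genotypes on day 3, with a higher mean sum in Mb1Cre libraries. The 6 markers summed to 5.85 and 5.54 FPKM in Mb1Cre and to 6.25, 2 and 1.63 FPKM in Mct1f/fMb1Cre libraries, with means of 5.7 and 3.29 FPKM. The highest of these sums was in Mct1f/fMb1Cre replicate 1, where Il1r2 was at 4.62 FPKM. In Mb1Cre libraries the day 0 sums were 380.39 and 533.81 FPKM, so the markers fell between the days while Il1r2 rose. The mean was higher in Mb1Cre for 5 of the 6, Retnlg was at 0 in all day 3 libraries, and 0 of the 6 separated the genotypes without overlap. Among the day 0 libraries, 4 of the 6 (S100a8, S100a9, Retnlg and Cxcr2) stood in the same order as Il1r2 and 2 (Mmp8 and Ngp) did not, a description over 4 libraries. The part of neutrophils in the Il1r2 values of either day was not tested. On day 3 the monocyte and macrophage markers summed to 13.77 and 14.49 FPKM in Mb1Cre and to 22.58 to 26.29 FPKM in Mct1f/fMb1Cre libraries, higher where Il1r2 was lower, and their part was not tested either.

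Sigirr, the inhibitory receptor, stayed above 12 FPKM in every library. It was at 20.26 and 19.95 FPKM in Mb1Cre and at 20.47 and 21.85 FPKM in Mct1f/fMb1Cre B cells on day 0. On day 3 it was at 15.66 and 15.53 FPKM in Mb1Cre and at 12.13, 14.34 and 12.84 FPKM in Mct1f/fMb1Cre B cells. The activation difference of -0.65 (SE 0.0645) passed the test in Mct1f/fMb1Cre B cells (limma adjusted p = 2.08e-06). In Mb1Cre B cells the difference of -0.35 (SE 0.0706) had a limma adjusted p of 7.77e-04 but stayed within the limit of 0.5 in size. With libraries scaled to a common total it was -0.54 and was called.

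Il1rap, the accessory chain that IL-1, IL-33 and IL-36 receptors share, was at 3.42 and 3.59 FPKM in Mb1Cre and at 3.98 and 3.87 FPKM in Mct1f/fMb1Cre B cells on day 0. On day 3 it was at 3.32 and 3.35 FPKM in Mb1Cre and at 3.49, 3.35 and 2.9 FPKM in Mct1f/fMb1Cre B cells. All 9 libraries thus lay between 2.9 and 3.98 FPKM. The activation difference was -0.06 (SE 0.0836; limma adjusted p = 0.547) in Mb1Cre and -0.22 (SE 0.0763; limma adjusted p = 0.0205) in Mct1f/fMb1Cre B cells, neither of them called, and with quantile normalization both were positive (0.29 and 0.17).

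Il1rn, the receptor antagonist, was at 1.68 and 2.53 FPKM in Mb1Cre and at 2.65 and 1.83 FPKM in Mct1f/fMb1Cre B cells on day 0. On day 3 it was at 1.62 and 1.67 FPKM in Mb1Cre and at 1.75, 1.59 and 1.57 FPKM in Mct1f/fMb1Cre B cells. The replicates on day 0 lay further apart than the day means. The activation difference was -0.22 (SE 0.144; limma adjusted p = 0.178) in Mb1Cre and -0.29 (SE 0.132; limma adjusted p = 0.0618) in Mct1f/fMb1Cre B cells, not called, and it was positive with quantile normalization (0.27 and 0.23).

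Il1r1, Il1rl1 and Il1rl2 had means below 1 FPKM and were read from the fit without the filter. Il1rl1, the IL-33 receptor, was at 0.76 and 0.71 FPKM in Mb1Cre and at 0.97 and 0.9 FPKM in Mct1f/fMb1Cre B cells on day 0, and at 0.16 to 0.2 FPKM in all day 3 libraries. It fell in both genotypes, with log2 differences of -0.57 and -0.70 (SE 0.0316 and 0.0288; limma adjusted p = 3.76e-06 and 8.46e-07). The basophil and mast cell markers, cells in which ST2 is well known, summed to 4.3 to 9.87 FPKM on day 0 and to 0.27 to 0.47 FPKM on day 3. Those of type 2 innate lymphoid cells summed to 6.59 to 7.62 and to 0.21 to 0.72 FPKM, with Il5, Il13 and Areg at or near 0 in every library. Most of that day 0 sum was Il7r (5.21 to 6.18 FPKM), the only 1 of the 6 markers that was at least 10-fold lower on day 3. The part of such cells in the Il1rl1 values was not tested.

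Il1r1, the signalling receptor of IL-1, was at 0.35 and 0.45 FPKM in Mb1Cre and at 0.65 and 0.4 FPKM in Mct1f/fMb1Cre B cells on day 0. After activation it was at 0.21 and 0.14 FPKM in Mb1Cre and at 0.1, 0.07 and 0.05 FPKM in Mct1f/fMb1Cre B cells, so that no library reached 1 FPKM of it. It fell in Mct1f/fMb1Cre B cells, with a log2 difference of -0.50 (SE 0.0717; limma adjusted p = 5.87e-04), close to the limit of 0.5. In Mb1Cre B cells the difference of -0.25 (limma adjusted p = 0.0258) was not called. Il1rl2, the IL-36 receptor, was at 0.05 to 0.2 FPKM in all libraries, with differences of -0.06 and -0.11 that were not called (limma adjusted p = 0.208 and 0.0272).

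**Figure D4:**
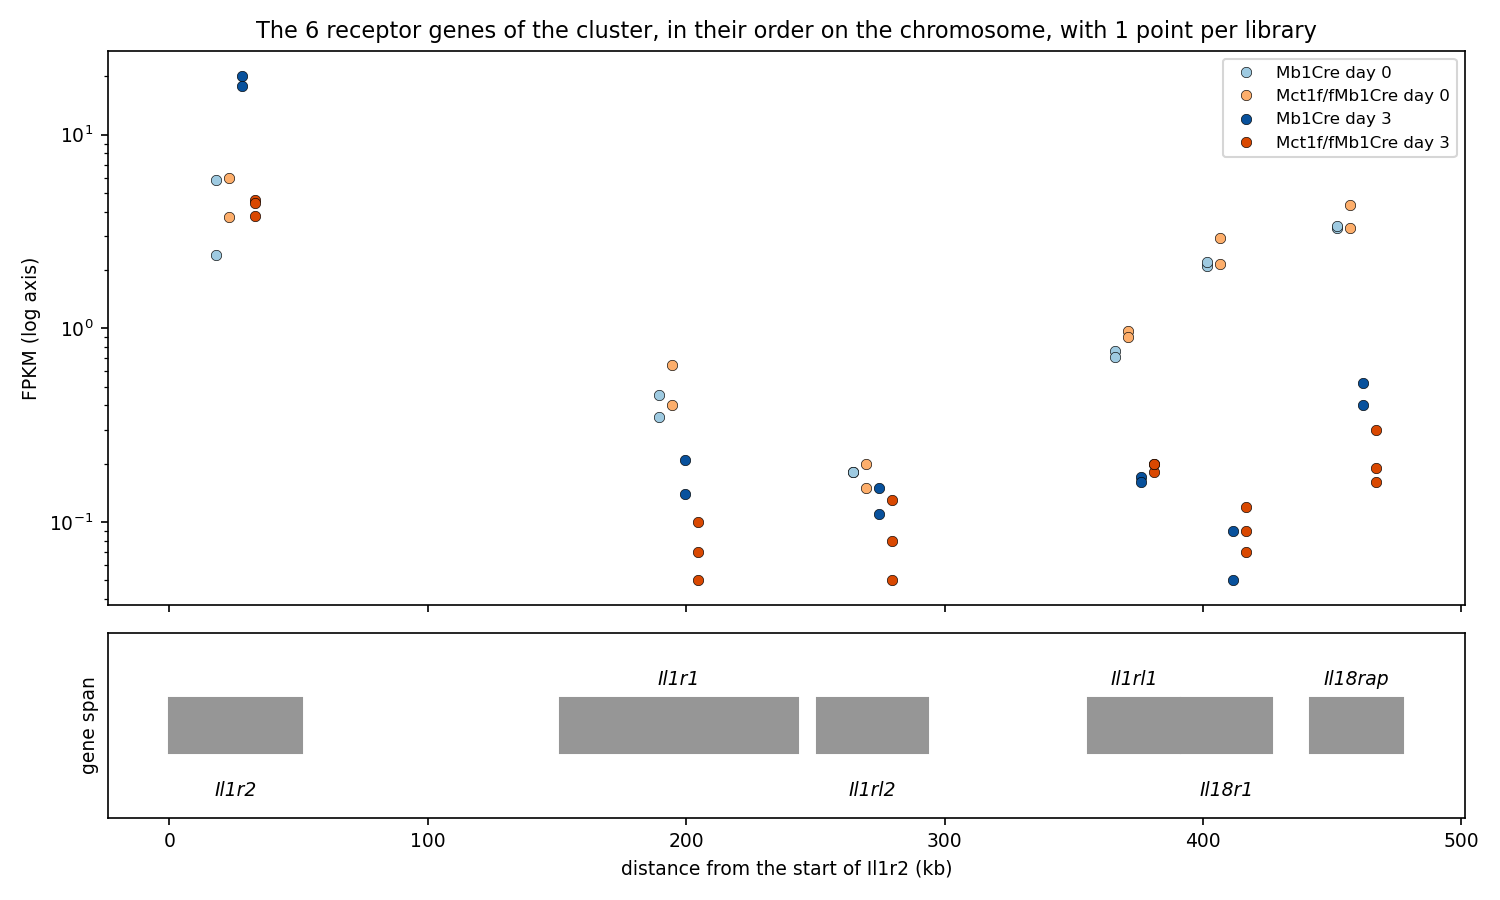
Upper panel, FPKM on a log axis, 1 point per library, for the 6 receptor genes of chromosome 1 placed at their position in the cluster; lower panel, the span of each gene, in kb from the start of Il1r2. Il1r2 at one end holds the 2 Mb1Cre day 3 points at 17.79 and 20.11 FPKM, and Il18r1 and Il18rap at the other end are below 0.6 FPKM in every day 3 library.

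Along the cluster the 6 genes therefore differed in level and in course although they lie next to each other on 1 strand. Across the 9 libraries Il1r2 ran between 2.4 and 20.11 FPKM, while its nearest neighbour in the cluster, Il1r1, ran between 0.05 and 0.65 FPKM. The gene outside the cluster on the Il1r2 side, the kinase gene Map4k4, was at 22.07 to 32.15 FPKM, and Slc9a4, on the Il18rap side, was at 0 to 0.02 FPKM. In Mb1Cre B cells 5 of the 6 cluster genes were lower in both day 3 libraries than in both day 0 libraries. Of all 17596 genes, 47.2% were lower in this way. Il1r2 was the exception through the day 3 values that chose the family, so its place apart is a description. The other 5 were at or below 0.52 FPKM in the Mb1Cre day 3 libraries.

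Between the genotypes on day 0, libraries that had no part in the choice, no member was called: 0 of the 7 that passed the filter, with 1 at an unadjusted limma p under 0.05, and 0 in the fit without the filter. As background, 0.277% of the genes tested were called. For Il1r2 the log2 difference was 0.26 (SE 0.263; limma adjusted p = 0.749), and without Mct1f/fMb1Cre day 0 replicate 1 it was -0.01. Il18 had the largest difference, 0.28 (SE 0.117; limma adjusted p = 0.404). In 4 of the 10 members (Il18, Il1rap, Il1rl1 and Sigirr) both Mct1f/fMb1Cre libraries lay above both Mb1Cre libraries, beside 15.7% of all 17596 genes, and in the other 6 the genotypes overlapped. With 2 libraries against 2, a p that misses the threshold does not show that the genotypes were alike.

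The day 3 genotype values of the members other than Il1r2 are given with no test. Sigirr was at 84.0% of its Mb1Cre level in Mct1f/fMb1Cre B cells (log2 difference -0.24), Il18 at 69.5% (-0.18) and Il18rap at 47.1% (-0.26). The last 2 rest on low levels, at 0.27 to 0.62 FPKM for Il18 and below 0.6 FPKM for Il18rap. Il1rap stood at 97.4% and Il1rn at 99.5% of the Mb1Cre level. Of the 10 members, 5 (Il1r2, Il1r1, Il18rap, Il18 and Sigirr) had all Mct1f/fMb1Cre libraries below both Mb1Cre libraries, 1 (Il1rl1) had all above, and 4 overlapped. Among the 7 that passed the filter 4 lay below, beside 26.1% of all genes tested, a comparison that the choice used and from which nothing is read.

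The pathway around the receptors was described from 2 lists of 36 genes, ligands and cytokine processing (17) and shared signalling (19), of which 31 were in the table and 29 passed the filter. On activation of Mb1Cre B cells 4 of the 29 rose and 14 fell, and the counts were the same in Mct1f/fMb1Cre B cells. Among all genes tested, 57.8% and 56.5% were called in either direction, and 33.0% and 33.2% were called lower. The median log2 difference of the 29 was -0.43 and -0.48, beside -0.12 and -0.14 for all genes tested. With a log2 limit of 1 the calls were 9 and 10 in place of 18 and 18. Il1b, Nlrp3 and Irak1bp1 passed the filter only through the day on which they were high, so nothing is read from these counts.

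Of the ligand and processing list 10 genes passed the filter, and 1 rose and 7 fell in Mb1Cre B cells, beside 33.0% of all genes called lower. Il1b, the cytokine that IL1R2 captures, was at 12.45 and 19.81 FPKM in Mb1Cre and at 21.04 and 18.88 FPKM in Mct1f/fMb1Cre B cells on day 0, and at 0.5 and 0.62 FPKM in Mb1Cre and at 1.07 to 1.35 FPKM in Mct1f/fMb1Cre B cells on day 3. Its log2 difference was -3.42 in Mb1Cre and -3.27 in Mct1f/fMb1Cre B cells. Il1b passed the filter through its day 0 values, being below 1 FPKM in both Mb1Cre day 3 libraries, so no p is given. It is a gene of monocytes too, whose markers moved the same way. The inflammasome sensors Nlrc4 and Nlrp3 fell as well, with log2 differences of -1.90 and -1.88 in Mb1Cre B cells (limma adjusted p = 6.80e-10 for Nlrc4). Nlrp3 was at 0.12 to 0.26 FPKM on day 3 and passed the filter only through day 0, so its p is not given. Casp4, the caspase that senses intracellular LPS, was the gene that rose, from 15.94 and 15.26 to 44.41 and 41.8 FPKM (log2 difference 1.41; limma adjusted p = 3.08e-09). Il1a had a mean below 1 FPKM, Il33 was below 0.4 FPKM in all libraries, and 5 listed genes (Il36a, Il36b, Il36g, Il36rn and Il1f10) had no row in the table used.

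Of the 19 shared signalling genes 3 rose and 7 fell in Mb1Cre B cells, beside 33.0% of all genes called lower. The kinase genes Irak2, Ikbkb and Irak4 fell, with log2 differences of -1.80, -1.29 and -0.88 (limma adjusted p = 5.25e-10, 5.77e-10 and 8.27e-08). Irak2, for example, went from 39.85 and 40.48 to 11.28 and 10.37 FPKM. The genes that rose were Irak1bp1 (log2 difference 1.46), Nfkb1 (1.28; limma adjusted p = 2.36e-10) and Nfkbiz (0.55; limma adjusted p = 1.45e-06). Irak1bp1 was at 0.38 to 0.6 FPKM on day 0 and passed the filter only through day 3, so its p is not given. Nfkb1, which encodes the NF-kB subunit p50 and its precursor, went from 94.29 and 93.68 to 224.25 and 236.4 FPKM. In Mct1f/fMb1Cre B cells 3 rose and 6 fell, beside 33.2% of all genes called lower.

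Between the genotypes 0 of the 29 pathway genes were called by limma on day 0, with 2 at an unadjusted p under 0.05, and 0 on day 3, with 10 at an unadjusted p under 0.05. Among all genes tested, 0.277% were called on day 0 and 2.42% on day 3. The shares of all genes at an unadjusted p under 0.05 or without the log2 limit were not counted, so nothing is read from such counts. Without the log2 limit 6 passed on day 3: Aim2 (log2 difference -0.34), Nfkb1 (-0.23), Casp4 (-0.25) and Il18bp (-0.39) were lower in Mct1f/fMb1Cre B cells and Nlrc4 (0.24) and Nfkbiz (0.18) higher, with limma adjusted p between 0.00233 and 0.0313. Aim2 and Il18bp were named after their values were seen. Il18bp, the soluble binding protein that neutralises IL-18, was at 3.69 and 5.09 FPKM in Mb1Cre and at 2.78, 3.4 and 3.05 FPKM in Mct1f/fMb1Cre B cells on day 3. Without Mb1Cre day 3 replicate 1 the Il18bp difference was -0.58 and was called. Il1b was at 211% of its Mb1Cre level in Mct1f/fMb1Cre B cells on day 3, from low levels of 0.5 and 0.62 against 1.07 to 1.35 FPKM. Its log2 difference of 0.48, with a limma adjusted p of 0.0529, missed both limits of a call. The monocyte and macrophage marker sums were higher there too (22.58 to 26.29 against 13.77 and 14.49 FPKM), and their part was not tested.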

How the data were processed

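RNA of 9 libraries of mouse spleen B cells (4 groups of 2, 2, 2 and 3) was sequenced. The authors deposited FPKM values for 17596 genes, rounded to 2 decimals. The read processing was done at the BGISEQ institute. The submitters' processing notes name Bowtie2 and GRCm38/mm10, while the counter, annotation and versions are not given in the sources used here. The labels and the methods name different RNA kits. FPKM already include scaling by length and mapped fragments, and read counts are unknown, so precision rests on 2 or 3 libraries per group.

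From the deposited FPKM, log2(FPKM + 1) was fitted with limma 3.58.1 in R 4.3.3 for the 10823 genes that averaged 1 FPKM or more, with 1 mean per group, a variance trend and Benjamini-Hochberg adjustment over all genes. A call needed a log2 difference above 0.5 in size and an adjusted p below 0.05. The fit was tested on simulated data. Members, gene lists and marker lists were chosen with earlier results of these data known. Named were all members, up to 3 called genes per pathway list and direction with the largest activation difference in Mb1Cre B cells, genes called between genotypes, the 5 genes most like Il1r2 and Slc16a1. Alternatives were pseudocounts of 0.1 and 5, no filter or 5 FPKM, 3 other scalings, only the groups compared, a replicate block, a log2 limit of 1 or no limit, and leaving out the libraries singly. Replicate numbers did not pair the libraries. Promoter sequences are RefSeq's, gene positions GENCODE's. Figures were drawn with matplotlib 3.10.9 in Python 3.11.15.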

Additional observations from a re-analysis of the deposited data

Results flagged for a closer look

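In 2 members the genotype difference had opposite signs on the 2 days, with every library on the same side. Il18 was higher in both Mct1f/fMb1Cre libraries on day 0 and lower in all 3 on day 3, and the log2 difference on day 3 minus that on day 0 was -0.45. Sigirr did the same, with a value of -0.31. The day 3 values belong to the comparison that chose the family, so neither difference between the days was tested. The nearest Il18 libraries of the genotypes were close, 17.16 beside 16.61 FPKM (day 0), then 0.5 beside 0.56 (day 3). The latter lie under the 1 FPKM of the filter. For Sigirr the nearest were 20.47 beside 20.26, then 14.34 beside 15.53. Taken singly, the day 0 order held for 15.7% of all 17596 genes, the day 3 order for 26.1% of the 10823 tested. How many genes show both was not counted, so nothing is read from the count of 2.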

How the results depend on the processing

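With a mean of at least 5 FPKM, which fewer members reach, the members called on activation went from 3 to 1 in Mb1Cre and from 4 to 2 in Mct1f/fMb1Cre B cells. Il18 reached that mean only through day 0, being at 0.27 to 0.62 FPKM on day 3. With a log2 limit of 1 the pathway genes called went from 18 to 9 and from 18 to 10. The shares of all genes called under these settings were not counted, so nothing is read from these counts. Between the genotypes the pathway genes called were 0 on day 0, and 0 to 1 with a library left out (Il1b, without Mb1Cre day 0 replicate 2). On day 3 they were 0, but 1 with a pseudocount of 0.1 (Il1b), 6 without the log2 limit and 0 to 1 with a library left out. The Il1r2 activation difference in Mb1Cre B cells was 1.42 with a pseudocount of 5. For Il1r2 the genotype difference on day 3 was -1.37 with a pseudocount of 5, and that on day 3 minus day 0 was -2.45 with 0.1, -1.50 with 5 and -2.67 to -1.67 with a library left out. The activation difference of Il1rap was 0.043 (median-of-ratios scaling) and 0.29 (quantile normalization) in Mb1Cre and 0.17 (quantile) in Mct1f/fMb1Cre B cells, and that of Il1rn 0.27 and 0.23 (quantile). With 1 library left out, day 0 genotype differences ran from -0.25 to 0.76 for Il1r2 (negative without Mb1Cre replicate 1 and, at -0.01, without Mct1f/fMb1Cre replicate 1), from -0.14 to 0.26 for Il1rn (negative without the same libraries) and from -0.0100 to 0.30 for Il18rap (negative without Mct1f/fMb1Cre replicate 1). Scaling to a common total moved the median of all genes on activation of Mb1Cre B cells from -0.12 to -0.31 and the genes called lower from 3571 of 6258 to 4416 of 6494. In Mct1f/fMb1Cre B cells those called lower went from 3588 of 6120 to 4323 of 6333, and to 2852 of 5906 with quantile normalization. A group left with 1 library was assumed to vary like the others. With the replicate block, members called stayed at 3, 4 and 0, pathway genes called were 18, 19, 0 and 0, and the Il1r2 differences were -1.94 and -2.19, while the correlation of same-numbered libraries was -0.122 to 0.0642. A crossed replicate block in Mb1Cre B cells, chosen after seeing the data, called 3 members. The difference between days could not be fitted with only the groups compared.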
